A study of Mus musculus with 26 samples.

Results

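Inversional joins to Sε were the CSR-HTGTS junctions whose prey end lay on chromosome 12 between positions 114504000 and 114521999 of mm9 and whose prey aligned on the plus strand. They numbered 6222 of the 777800 junctions in 26 libraries, and 34079 further junctions in the same window had the prey on the minus strand and are called deletional. CSR-HTGTS (class switch recombination high-throughput genome-wide translocation sequencing) starts from a primer beside one S region, the bait, and reads each bait end together with the prey sequence to which it was joined. The libraries were made from genomic DNA of sorted CD43- splenic B cells of young adult mice of the same strain background, either WT or homozygous for A150. In A150 the Iγ3 promoter is replaced by a PVH-VDJ-Eµ cassette in the germline, hence in every cell and not only in B cells, and B cell development in these mice is driven by IgG3. Cells were stimulated for 96 h according to the labels with aCD40/IL4 (anti-CD40+IL4) or with aCD40/IL4/IL5/TGFb/b-Lys (anti-CD40+TGF-β). The Sµ-bait groups held 3 WT and 4 A150 libraries for anti-CD40+IL4 and 3 WT and 3 A150 libraries for anti-CD40+TGF-β. The Sγ3-bait groups held 3 WT and 3 A150 libraries for anti-CD40+IL4 and 3 WT and 4 A150 libraries for anti-CD40+TGF-β.

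Class switch recombination replaces the constant region of an antibody by joining breaks that AID, the enzyme that deaminates cytosines, initiates in 2 S regions. The IgH constant genes lie on the minus strand of chromosome 12 in the order Cµ, Cδ, Cγ3, Cγ1, Cγ2b, Cγ2a, Cε and Cα, so that higher coordinates are upstream. Sε lies in the intron between the Iε exon and Cε, the gene of the IgE heavy chain, and IL4 is the classic inducer of its germline transcription. When a donor end is joined to the downstream side of a break in Sε, the DNA between them is lost as a circle and productive switching results. When it is joined to the upstream side of the break, the intervening DNA is turned around in the chromosome and no IgE can be made from that allele. Deletional and inversional joins thus sample the opposite sides of breaks in the same acceptor.

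IgH junctions, counted from 114450000 to 114700000 on chromosome 12, ranged from 4621 to 36041 in the Sµ-bait libraries and from 35111 to 96481 in the A150 libraries with the Sγ3 bait. WT libraries with the Sγ3 bait held from 31 to 102 of them and entered no test. The leading 14 bases of the listed bait primer were found in 97.2% of the 1477 inversional reads with the Sµ bait and in 96.6% of the 4745 with the Sγ3 bait, and the primer of the other bait was found in 0 of both. A label that names the target locus reads WT for every Sµ-bait library and A150 for every Sγ3-bait library whatever the genotype, so that genotype and bait were taken from the sample titles. No join to Sε of either orientation was marked for low mapping quality, as a duplicate or as a later junction of a read. The labels do not tie libraries to mice, while the figure legends of the study count independent mice, and p-values measure the spread between libraries.

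A stretch around the most used prey end of inversional joins is shown first, to show how often it holds AGCT, a preferred target of AID that reads the same on both strands. It spans chr12:114514901-114515140 on the minus strand, which is the coding strand, and was rebuilt from the aligned bases of the reads themselves, with AGCT in capitals.

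Sε stretch: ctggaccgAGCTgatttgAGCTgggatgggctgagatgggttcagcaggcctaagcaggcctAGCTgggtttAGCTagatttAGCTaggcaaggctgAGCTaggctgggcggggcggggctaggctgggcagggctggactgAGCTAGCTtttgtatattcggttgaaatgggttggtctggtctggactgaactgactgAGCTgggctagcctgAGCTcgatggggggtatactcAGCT

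This stretch of 240 bases held 1121 inversional reads, 18% of the total, and 4046 deletional reads, 11.9% of the total. AGCT, searched as these 4 letters, occurs 11 times in it. Every window of this length in the core of Sε contains AGCT, with a median of 9, and 23.7% of these windows contain 11 or more.

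Prey ends of inversional joins were spread over 2152 positions, of which 876 were used once and 74 carried 10 or more joins. With identical joins of a library counted once, the most used position was 114515043, with 31 joins in 7 libraries. It was followed by 114514998 with 24, 114515078 with 22 and 114515009 with 21. Positions 114515232 and 114515521 shared the fifth place, with 19 joins each. The most used one had 28 joins with the Sγ3 bait and 3 with the Sµ bait, where 4745 of all 6222 inversional reads came from the Sγ3 bait. Deletional reads from the same breaks numbered from 3 at 114515521 to 17 at 114515009, at positions that were chosen for their inversional joins. The coding strand around these breaks is given with the break between bases 15 and 16 and AGCT in capitals.

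114515043: gctaggcaaggctgAGCTaggctgggcggg

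114514998: gcagggctggactgAGCTAGCTtttgtata

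114515078: gcctaagcaggcctAGCTgggtttAGCTag

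114515009: ggctaggctgggcagggctggactgAGCTa

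114515232: actgaactaagtagggctgggctaAGCTga

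114515521: gctagactagtctgAGCTgggttaagcagg

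In 4 of the 6, the break fell within or at the edge of an AGCT, and in the other two the AGCT within these bases began further downstream. Of all 30-base windows in the core, 64.1% contain AGCT, as do all 6 printed here. Break positions within or at the edge of an AGCT make up 17.4% of the core. The 6 positions were picked for their many joins, not all of them lie in the core, and the comparison was not tested.

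Joins themselves are shown from A150 libraries stimulated with anti-CD40+IL4, to make the structure of an inversional join and the span from insertion to long microhomology (MH) visible. Each begins with 25 bases of bait on its coding strand and ends with 25 bases of Sε read in the opposite direction, so that AGCT-rich S region sequence appears there as its complement. Capitals mark bases between bait and prey (insertions) or bases that match both (MH). The longest MH was taken over joins without a mismatch in the overlap.

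Sγ3 to 114515043, direct join: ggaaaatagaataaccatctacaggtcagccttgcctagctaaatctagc

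Sγ3 to 114515043, MH: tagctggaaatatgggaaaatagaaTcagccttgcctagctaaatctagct

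Sγ3 to 114515043, insertion: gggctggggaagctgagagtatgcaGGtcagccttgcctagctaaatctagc

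Sµ to 114515043, insertion: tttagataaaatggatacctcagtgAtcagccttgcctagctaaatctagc

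Sγ3, longest MH: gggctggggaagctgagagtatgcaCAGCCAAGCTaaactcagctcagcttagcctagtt

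Sµ, longest MH: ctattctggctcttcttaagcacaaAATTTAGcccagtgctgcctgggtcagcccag

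Sγ3, longest insertion: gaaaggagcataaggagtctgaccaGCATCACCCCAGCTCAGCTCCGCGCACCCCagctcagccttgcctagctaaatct

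Sµ, longest insertion: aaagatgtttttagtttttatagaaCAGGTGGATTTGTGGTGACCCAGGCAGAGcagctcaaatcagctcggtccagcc

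The longest MH without a mismatch in an inversional join of these libraries was 10 bp with the Sγ3 bait, at 114514289, and 7 bp with the Sµ bait, at 114515678. The former contains AGCT and the latter does not. The longest insertions were 30 bp and 29 bp, at 114515040 and 114515118. Over all libraries the longest insertion of deletional Sε joins was also 30 bp with either bait. Whether longer insertions were left out of the deposited junctions was not tested.

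The question of the first comparison was how often ends from each donor joined Sε in the inverted orientation. In A150 B cells this happened about 3 to 4 times as often, relative to all Sε joins, from Sγ3 as from Sµ. For Sµ and anti-CD40+IL4, the 4 A150 libraries held 184, 416, 217 and 231 inversional joins beside 2701, 5110, 2716 and 2983 deletional joins. The inversion percentages were 6.38%, 7.53%, 7.40% and 7.19%, with a mean of 7.12% ± 0.516 (SD, n = 4). With the Sγ3 bait, the 3 libraries held 1056, 1536 and 1060 inversional joins beside 3496, 4969 and 4258 deletional joins. Their percentages of 23.2%, 23.6% and 19.9%, with a mean of 22.2% ± 2.02 (SD, n = 3), all lay above the Sµ-bait libraries. For anti-CD40+TGF-β, the Sµ-bait libraries held 36, 52 and 40 inversional joins, or 6.83%, 7.87% and 6.91% of Sε joins, with a mean of 7.20% ± 0.577 (SD, n = 3). The 4 Sγ3-bait libraries held 221, 292, 264 and 305 inversional joins, or 30.5%, 30.4%, 28.1% and 29.4%, with a mean of 29.6% ± 1.14 (SD, n = 4). The baits did not overlap under either stimulation.

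For anti-CD40+IL4 the Sγ3-bait percentage was higher by 15.1 points, and for anti-CD40+TGF-β by 22.4 points, each with an exact permutation p of 0.0286, the smallest possible, and 0.0667 after Benjamini-Hochberg adjustment over 7 comparisons. Over both stimulations the difference was 18.8 points (2-sided exact permutation test over 1225 arrangements, p = 0.000816, the smallest possible, adjusted p = 0.00408 over 5 tests). As a percentage of all IgH junctions, inversional Sε joins were also more frequent with the Sγ3 bait, by 0.419 points for anti-CD40+IL4 and by 0.219 points for anti-CD40+TGF-β, with the same exact p. By contrast, deletional Sε joins made up a smaller part of IgH junctions from Sγ3, which was not tested. For anti-CD40+IL4, A150 libraries averaged 4241 deletional joins among 83384.7 IgH junctions from Sγ3 and 3377.5 among 25131.2 from Sµ. For anti-CD40+TGF-β these averages were 645.5 among 41239.8 and 546.3 among 9767.3. The higher inversion percentage thus goes with fewer deletional joins on this scale, beside more inversional ones.

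**Figure D1:**
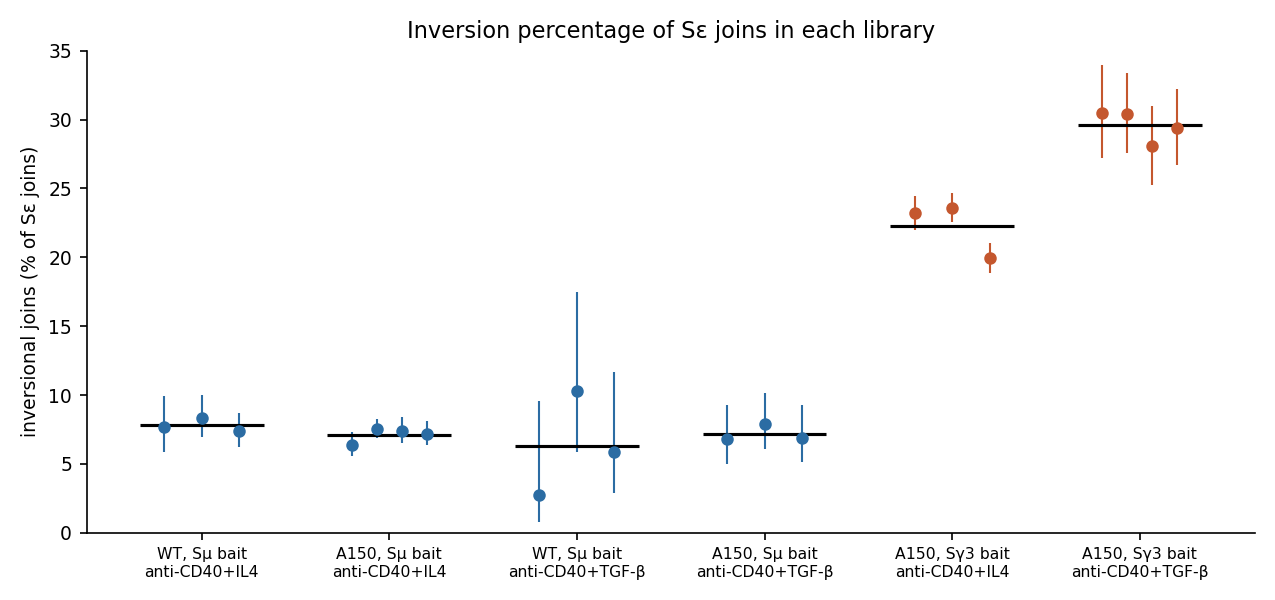
Inversional joins as a percentage of all Sε joins (y axis) in each of 20 libraries, grouped along the x axis by genotype, bait and stimulation, with 95% Wilson intervals as vertical lines and group means as horizontal lines. The Sγ3-bait libraries lie between 19.9% and 30.5%, above every Sµ-bait library, and the 3 WT libraries for anti-CD40+TGF-β have the widest intervals.

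The genotypes were not shown to differ in the inversion percentage with the Sµ bait, whereas A150 had more inversional Sε joins among all IgH junctions. For anti-CD40+IL4, the WT libraries held 49, 107 and 125 inversional joins beside 592, 1172 and 1574 deletional joins, or 7.64%, 8.37% and 7.36%, with a mean of 7.79% ± 0.520 (SD, n = 3). The A150 minus WT difference was −0.666 points, with 2 A150 libraries below and 2 within the WT range (exact permutation p = 0.143, adjusted p = 0.25). Without WT library 2 the difference was −0.378 points and without A150 library 1 −0.418 points. For anti-CD40+TGF-β, only 2, 11 and 7 inversional joins were found in WT, beside 70, 96 and 112 deletional joins. Their percentages of 2.78%, 10.3% and 5.88% spanned all of the A150 values, and 3 libraries against 3 cannot give a p under 0.1. Over both stimulations the A150 minus WT difference was 0.111 points (exact permutation p = 0.924). As a percentage of all IgH junctions, inversional Sε joins were 1.04% ± 0.198 (SD, n = 4) in A150 and 0.530% ± 0.0318 (SD, n = 3) in WT for anti-CD40+IL4. The corresponding values for anti-CD40+TGF-β were 0.440% ± 0.0797 and 0.116% ± 0.0829 (SD, n = 3 each). On this scale the difference over both stimulations was 0.416 points (exact permutation p = 0.00286). Deletional Sε joins were more frequent in A150 on this scale too, which was not tested. For anti-CD40+IL4 they averaged 3377.5 beside 25131 IgH junctions in A150 and 1112.7 beside 17978 in WT. For anti-CD40+TGF-β they averaged 546.3 beside 9767 and 92.7 beside 5702. The difference was thus not particular to inversional joins. At the depth of the WT anti-CD40+TGF-β libraries, in which 3 joins made up from 2.52% to 4.17% of Sε joins, a difference of a few points was not detectable.

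The stimulation went with a different inversion percentage for the Sγ3 bait. The A150 Sγ3-bait libraries were 7.34 points higher for anti-CD40+TGF-β than for anti-CD40+IL4, without overlap (exact permutation p = 0.0286, the smallest possible, adjusted p = 0.0667). With the Sµ bait the difference was 0.0792 points in A150 (p = 0.886, exact permutation) and −1.48 points in WT (p = 0.7, exact permutation). Over these 3 groups the difference was 1.98 points (exact permutation p = 0.122), or 2.57 points without WT library 1 for anti-CD40+TGF-β (exact permutation p = 0.0215). The genotype difference changed between the stimulations by 1.55 points (exact permutation p = 0.55), or by 3.54 points without WT library 2 of that group (exact permutation p = 0.00857). The change of the bait difference between the stimulations was 7.26 points. Its p was 0.574 when bait labels were permuted within each stimulation (exact permutation, 1225 arrangements). That test cannot decide on such a change, because permuting bait labels carries the larger difference between the baits into the spread. The p was 0.0163 when stimulation labels were permuted within each bait (exact permutation, 1225 arrangements), a choice made after seeing the data. Deletional Sε joins were also fewer for anti-CD40+TGF-β, and relative to all IgH junctions, inversional Sε joins fell by 0.799 points with the Sγ3 bait. The change in percentage is therefore a change relative to the deletional joins of the same libraries.

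WT libraries with the Sγ3 bait held almost no Sε joins. Inversional and deletional joins numbered 5 and 2, 2 and 3, and 2 and 4 in the anti-CD40+IL4 libraries. The anti-CD40+TGF-β libraries held 1 and 0, 0 and 0, and 1 and 0. Together these are 11 inversional joins, from too few reads for a percentage.

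Inversional joins lay further upstream in Sε than deletional ones. Over all libraries the inversional joins had their median at 114514996, with quartiles at 114514284 and 114515292, and the deletional joins had theirs at 114514262. The 100 bp bin with the most inversional joins, 114515000 to 114515099, held 665 of them, or 10.7%. The bin with the most deletional joins was 114513900 to 114513999, 1100 bp downstream, with 2483 or 7.29%. The inversional peak was in the same bin for both baits, with 8.46% of the joins from Sµ and 11.4% of those from Sγ3. The core of Sε, the shortest run of bins with 90% of the joins of both orientations, ran from 114513000 to 114515499. It held 91.8% of the deletional but 84.9% of the inversional joins.

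**Figure D2:**
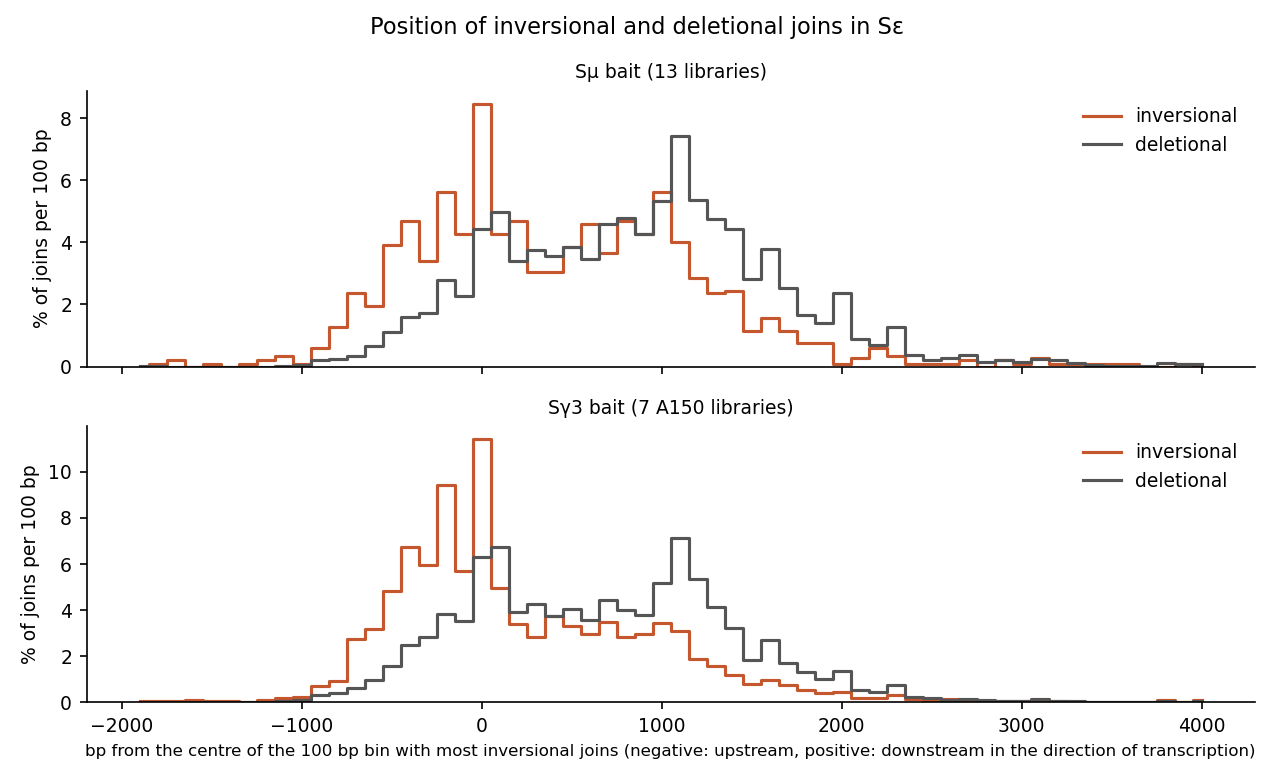
Joins per 100 bp as a percentage of the joins of that orientation (y axis), against the distance in bp from the centre of the bin with the most inversional joins (x axis, upstream to the left), for the 13 Sµ-bait libraries and the 7 A150 Sγ3-bait libraries. Inversional joins peak at 0 with both baits and thin out downstream, whereas deletional joins peak at 1100 bp.

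Within libraries, the median inversional position was upstream of the median deletional position in 7 of 7 A150 Sγ3-bait libraries and in 11 of 13 Sµ-bait libraries. For the Sγ3 bait, the inversional medians ranged from 114515005 to 114515042 and the deletional medians from 114514330 to 114514649.5. The shift was 528.5 bp upstream on average (SD 141 bp, n = 7, exact sign-flip test p = 0.0156, the smallest possible, adjusted p = 0.0365 over 14 tests). For the Sµ bait the shift was 348.6 bp (SD 356 bp, n = 13, exact sign-flip test p = 0.00684, adjusted p = 0.0365). The 2 Sµ-bait libraries with the opposite order were WT libraries for anti-CD40+TGF-β with 2 and 7 inversional joins. Without the 3 libraries of that group, a choice made after seeing the data, the shift was 507.6 bp and upstream in each of the other 10.

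In A150, joins of both orientations lay further upstream from Sγ3 than from Sµ. The deletional medians averaged 114514342.8 and 114514076.9, respectively, in the anti-CD40+IL4 libraries and 114514598.6 and 114514323.7 for anti-CD40+TGF-β, without overlap, and were not tested. Among inversional joins, for anti-CD40+IL4, the medians were 114515009, 114515009.5 and 114515039.5 with the Sγ3 bait and 114514664.5, 114514800, 114514549 and 114514501 with the Sµ bait, without overlap. The difference was 390.7 bp, with an exact permutation p of 0.0571. For anti-CD40+TGF-β the Sµ-bait medians were 114514997.5, 114514938 and 114514742, all below the 4 Sγ3-bait medians. The difference was 123.6 bp (exact permutation p = 0.0286, adjusted p = 0.175). With the core of Sε alone, the first difference was 433.2 bp (exact permutation p = 0.0286) and the second 171.8 bp (exact permutation p = 0.0571). Without A150 Sµ-bait library 3 the difference for anti-CD40+TGF-β was 48.4 bp. Of 7 comparisons of the median position, 1 had an unadjusted p under 0.05, and none passed the adjustment.

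Because both orientations and both baits differ in where they join, the inversion percentage was also taken within bins of 500 bp, a choice made after seeing the data. In the A150 libraries it was higher towards the upstream end with either bait. With the Sγ3 bait it was 12.5% ± 3.33 (SD, n = 7) from 114513500 to 114513999, 22.8% ± 4.26 from 114514500 to 114514999, 40.0% ± 2.91 in the next bin upstream and 48.4% ± 3.87 from 114515500 to 114515999. For the Sµ bait the same bins had 3.46% ± 1.57, 7.17% ± 1.26, 13.8% ± 2.46 and 23.5% ± 5.82 (SD, n = 7). In the most upstream of these bins, inversional and deletional joins from Sγ3 were thus about equal in number, 587 and 594. The Sγ3-bait percentage was the higher in each of 7 bins, by 8.80 to 26.2 points (exact permutation tests within stimulations, p from 0.000816 to 0.00245, adjusted p at most 0.00245 over 7 bins).

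**Figure D3:**
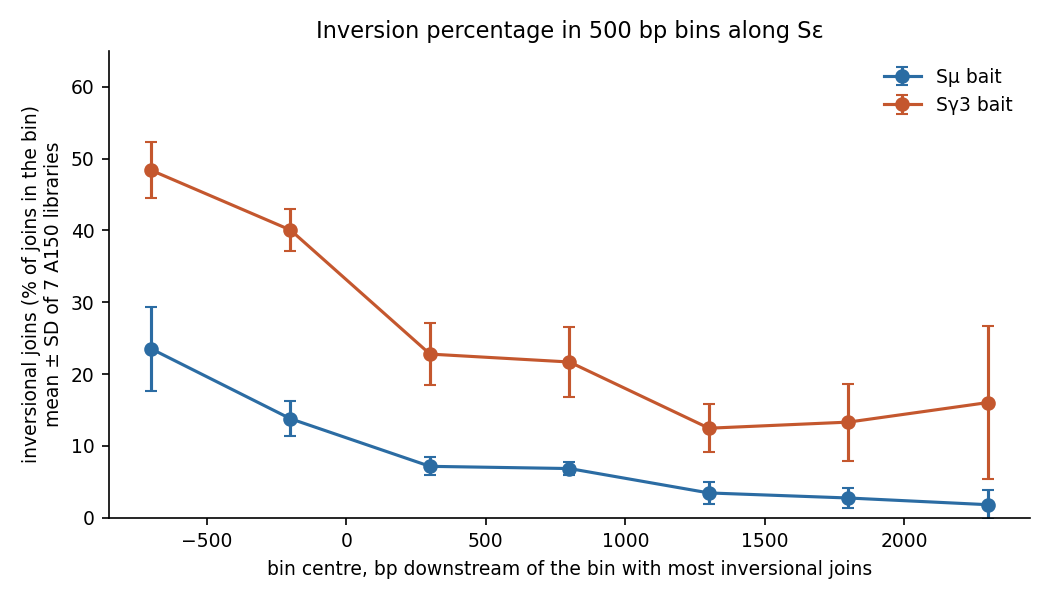
Inversional joins as a percentage of all joins in bins of 500 bp (y axis, mean ± SD of 7 A150 libraries per bait), against the distance of the bin centre in bp downstream of the 100 bp bin with the most inversional joins (x axis). Over the 5 upstream bins the means fall from 48.4% to 12.5% for Sγ3 and from 23.5% to 3.46% for Sµ, and in the other two Sγ3 means are 13.3% and 16.0%, with Sγ3 above Sµ in every bin.

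The ends were then classed by the overlap of bait and prey in the read. An insertion leaves bases that belong to neither, a direct join has no overlap, and MH of 1-3 bp or >3 bp is shared by both. Blunt and short-overlap ends are typical of classical non-homologous end joining, and longer MH of alternative end joining. Among inversional joins MH >3 bp did not separate the baits. It was found in 5.40%, 5.21% and 5.09% of them in the A150 Sγ3-bait libraries for anti-CD40+IL4 and in 3.80%, 3.12%, 5.99% and 6.49% in the Sµ-bait libraries. The difference was 0.380 points (exact permutation p = 0.657). For anti-CD40+TGF-β the percentages were 4.07%, 4.79%, 4.17% and 7.54% with the Sγ3 bait and 2.78%, 7.69% and 5.00% with the Sµ bait, and the groups overlapped (difference −0.0131 points, exact permutation p = 1).

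Among deletional joins of the same libraries the baits did not overlap in MH >3 bp, a comparison that was not tested. MH >3 bp was found in 9.78%, 9.38% and 9.16% of deletional joins with the Sγ3 bait and in 4.52%, 5.09%, 4.60% and 4.86% with the Sµ bait, all after anti-CD40+IL4. For anti-CD40+TGF-β the percentages were from 9.33% to 11.3% and from 6.08% to 7.33%. With the Sγ3 bait, inversional joins had less MH >3 bp than deletional ones in 7 of 7 libraries, by 4.53 points (SD 0.616, exact sign-flip test p = 0.0156, the smallest possible, adjusted p = 0.0365). With the Sµ bait the difference was −0.477 points over 13 libraries (SD 4.65, exact sign-flip test p = 0.754). This value became −2.66 points when 30 prey bases and 50 bait bases had to align (exact sign-flip p = 0.00195) and −1.06 points for MH >4 bp (exact sign-flip p = 0.0115). Without WT library 3 for anti-CD40+TGF-β, which held 7 inversional joins, it was −1.56 points (exact sign-flip p = 0.0698). For MH >4 bp the Sγ3-bait difference was −2.57 points (exact sign-flip p = 0.0156). The orientation difference itself differed between the baits by −3.77 points in A150 (exact permutation test over 1225 arrangements, p = 0.00163, adjusted p = 0.00653 over 4 classes, a test added after seeing the data), and by −1.81 points for MH >4 bp (exact permutation p = 0.0155). The aligned overlaps can hold mismatches, and 182 of the 248 inversional overlaps >3 bp from Sγ3 and 50 of the 66 from Sµ had none, as had 72.5% and 68.3% of the deletional ones. Joins with a mismatched overlap were then left out, a choice made after seeing the data. The Sγ3-bait difference between orientations was −3.55 points (exact sign-flip p = 0.0156) and the Sµ-bait difference 0.0733 points (exact sign-flip p = 0.970). The latter includes WT library 3 for anti-CD40+TGF-β, with 14.3% of its 7 inversional joins against 0.901% of its deletional ones. The difference between the baits was −3.06 points (exact permutation p = 0.00163).

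Direct joins were more frequent among inversions with the Sγ3 bait, whereas with the Sµ bait this depended on the libraries included. With the Sγ3 bait they made up from 30.8% to 34.8% of inversional and from 26.6% to 31.0% of deletional joins, a difference of 4.86 points that had the same sign in 7 of 7 libraries (SD 1.71, exact sign-flip test p = 0.0156, adjusted p = 0.0365). With percentages taken without insertions it was 8.37 points (the same exact p). For MH of 1-3 bp the difference was −4.23 points (SD 2.27, the same exact p), and 0 of 7 libraries had the opposite order. When 30 prey bases and 50 bait bases had to align, the latter difference was −3.74 points (exact sign-flip p = 0.0781). With the Sµ bait, direct joins were more frequent among inversions in 10 of 13 libraries, but the mean difference was 0.389 points (SD 13.3, exact sign-flip test p = 0.917). Without the 3 WT libraries for anti-CD40+TGF-β, which held at most 11 inversional joins each, it was 6.02 points (exact sign-flip p = 0.00586). The difference in MH of 1-3 bp was −4.75 points over the 13 libraries (SD 9.32, exact sign-flip p = 0.0901) and −6.94 points over the other 10 (exact sign-flip p = 0.00195).

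**Figure D4:**
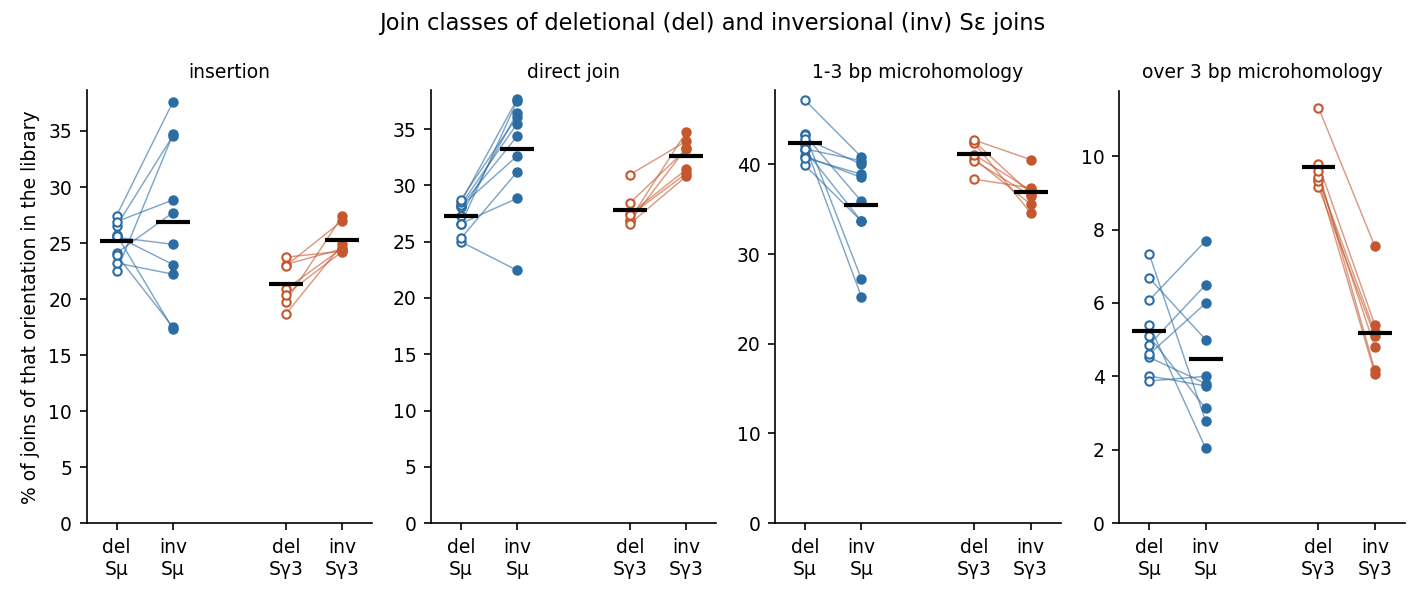
Percentage of deletional (open circles) and inversional (filled circles) Sε joins of each class (y axis, 1 panel per class) with the Sµ and Sγ3 baits, lines joining the values of 1 library and black bars giving means. The 3 WT libraries for anti-CD40+TGF-β are not drawn. Between 4.07% and 7.54% of inversional joins with the Sγ3 bait had MH >3 bp, below the deletional joins of each of these 7 libraries.

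Insertions were found in 17.3% to 37.6% of the inversional joins of every library outside the 3 groups with few such joins (WT with the Sγ3 bait under either stimulation, and WT with the Sµ bait for anti-CD40+TGF-β). With the Sγ3 bait they made up 24.5%, 24.5% and 27.0% in the anti-CD40+IL4 libraries and 24.9%, 27.4%, 24.2% and 24.3% for anti-CD40+TGF-β. These were higher than among deletional joins in 7 of 7 libraries, by 3.90 points (SD 2.49, exact sign-flip test p = 0.0156, adjusted p = 0.0365). In A150 with the Sµ bait, insertions made up 27.7%, 28.8%, 24.9% and 17.3% in the anti-CD40+IL4 libraries and 22.2%, 23.1% and 17.5% for anti-CD40+TGF-β. The Sγ3-bait minus Sµ-bait difference was 0.638 points for anti-CD40+IL4 (exact permutation p = 0.943) and 4.26 points for anti-CD40+TGF-β (exact permutation p = 0.0286, adjusted p = 0.4). Inversional minus deletional insertions averaged 4.84 points over all 13 Sµ-bait libraries (SD 16.6, exact sign-flip p = 0.331), 1.502 points without WT library 2 for anti-CD40+TGF-β and 1.70 points without that group (exact sign-flip p = 0.441). In 5 of the 7 A150 Sµ-bait libraries insertions were less frequent among inversional than deletional joins, and the WT libraries for anti-CD40+IL4 had 22.5%, 26.5% and 27.4% of deletional joins with an insertion. Within A150, the orientation difference was larger for the Sγ3 bait than for the Sµ bait by 5.89 points (exact permutation test, p = 0.0114, adjusted p = 0.0229, added after seeing the data). WT libraries for anti-CD40+IL4 had the highest insertion percentages of inversional joins among groups with over 20 such joins a library, 34.7%, 34.6% and 37.6%, all above the A150 libraries. The A150 minus WT difference was −10.9 points (exact permutation p = 0.0286, the smallest possible, adjusted p = 0.4 over 28 tests). Paired by number it was −8.47 points, with an exact sign-flip p of 0.25, the smallest that 3 pairs allow. It was one of 2 of the 28 class comparisons with an unadjusted p under 0.05, and none passed the adjustment.

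The overlaps and insertions were also compared by length and by their letters. A single inserted base accounted for 43.1% of the 401 insertions from Sµ and for 47.4% of the 1196 from Sγ3, close to the 43.3% and 46.8% of deletional joins. It was most often T, in 35.3% and 38.3% of these inversional joins, followed by A. Insertions of 10 bp or more were 6.23% and 9.28% of all insertions. MH >3 bp without a mismatch contained AGCT in 5 of 50 inversional joins from Sµ and in 52 of 182 from Sγ3 (28.6%), against 12.7% and 19.7% of deletional joins. A dinucleotide overlap read AG in 24.6% and 36.1% of inversional joins with 2 bp of MH and GG in 4.48% and 3.85%. In deletional joins AG made up 11.1% and 19.9% and GG 15.8% and 17.6%. The coding strand of S regions is rich in G, and in an inversional join the prey contributes the other strand. These lengths and letters were counted over pooled joins and were not tested.

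**Figure D5:**
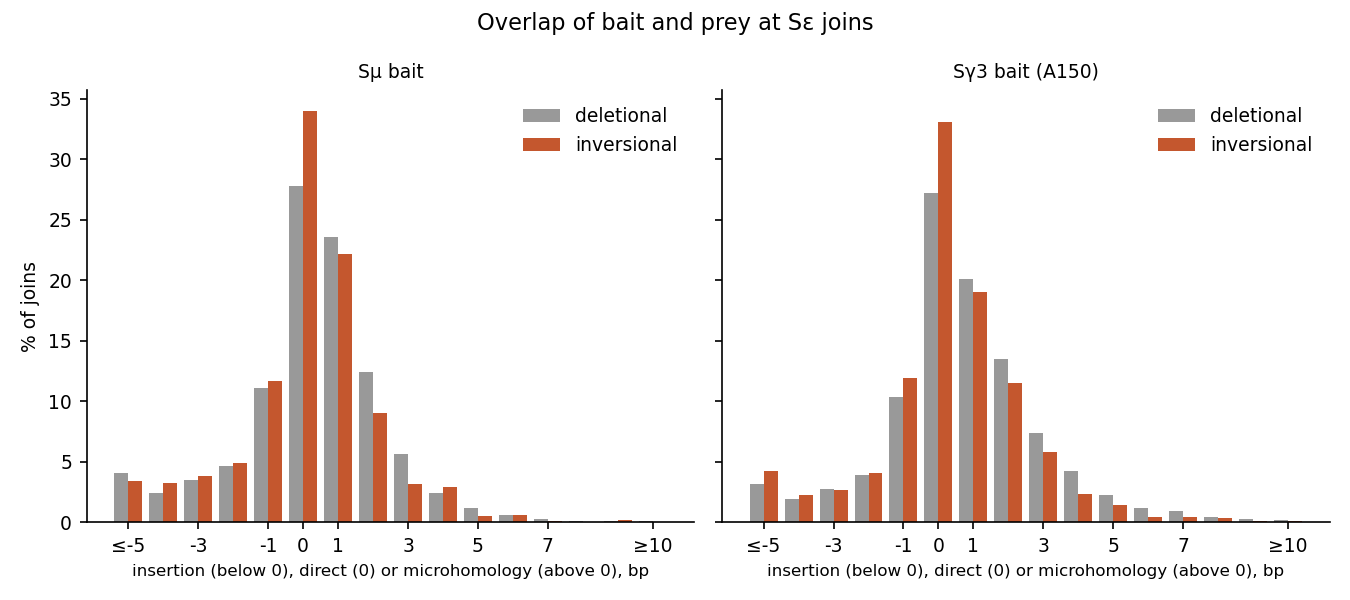
Percentage of deletional (grey) and inversional (orange) Sε joins (y axis) by overlap of bait and prey in bp (x axis, below 0 for insertions, end bars pooling lengths beyond), over all Sµ-bait libraries and all A150 Sγ3-bait libraries. Direct joins, at 0, are the most frequent kind in all 4 series, 34.0% and 33.1% of inversional against 27.8% and 27.3% of deletional joins.

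Breaks at AGCT were used by both orientations. A prey end within or at the edge of an AGCT was found in 21.7%, 23.1% and 20.1% of inversional joins from Sγ3 in the anti-CD40+IL4 libraries and in 22.6%, 22.9%, 23.5% and 21.3% for anti-CD40+TGF-β. Such positions make up 17.4% of the core of Sε, whereas the joins were counted over the whole window. Of the inversional joins with the Sγ3 bait, 15.2% lay outside the core. The deletional percentages were from 22.5% to 28.4%, and the difference was −2.45 points (exact sign-flip p = 0.0625, 2 of 7 libraries higher among inversions). With direct joins and insertions only, whose ends are placed without ambiguity, it was −5.04 points (exact sign-flip p = 0.0313). With the Sµ bait the inversional percentage was from 19.5% to 31.9% in the libraries other than WT anti-CD40+TGF-β, and the difference from deletional joins was −1.84 points over all 13 (exact sign-flip p = 0.467) and 1.33 points over the 10 without that group (exact sign-flip p = 0.355). MH makes the position of an end ambiguous, and the tables place it at the end of the prey alignment. The bait ends of both orientations were close to each other. Their medians differed by −2.88 bp for the Sµ bait (exact sign-flip p = 0.71) and by 5.64 bp for the Sγ3 bait (exact sign-flip p = 0.0313, adjusted p = 0.0625).

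Most inversional joins were found once. The 6222 reads came to 6113 distinct joins within libraries. Of the distinct inversional joins, 0.763% from Sµ and 2.44% from Sγ3 recurred in another library of that bait, and of the deletional joins 5.66% and 5.05%. The series with more joins have more chances to share one, and these percentages were not tested.

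The inversion percentage of Sε was below that of Sα in the same libraries with both baits, and its order relative to Sγ1 depended on the bait and on the mapping marks. With the Sµ bait, inversions were 12.2% ± 2.63 (SD, n = 13) of Sγ1 joins, and the Sε percentage was lower in 12 of 13 libraries, by 5.08 points (exact sign-flip test p = 0.000488, adjusted p = 0.00293 over 6 tests). Without Sγ1 joins marked for low mapping quality, inversions were 20.2% ± 5.02 of Sγ1 joins and the difference was −13.1 points (exact sign-flip p = 0.000244). Against Sα, in the 7 libraries with at least 20 Sα joins, a minimum set after seeing the data, it was lower in 7 of 7, with a difference of −4.29 points (exact sign-flip p = 0.0156, adjusted p = 0.0234). With the Sγ3 bait, inversions were 15.3% ± 1.42 of Sγ1 joins and 39.4% ± 6.13 of Sα joins (SD, n = 7). The Sε percentage was 11.2 points above Sγ1 and 12.9 points below Sα in each of 7 libraries (exact sign-flip p = 0.0156 and adjusted p = 0.0234 for both). Sγ1 joins carry these marks and Sε joins do not. In the Sγ3-bait libraries 88.5% of deletional and 70.8% of inversional Sγ1 joins were marked for low mapping quality, and without them inversions were 31.4% ± 1.03 of Sγ1 joins and the difference became −4.98 points. Sγ2b joins reached 20 in only 3 Sµ-bait and 4 Sγ3-bait libraries, where the differences from Sε were −9.06 and 6.41 points (exact sign-flip p = 0.25 for both).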

How the data were processed

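Per the labels, CSR-HTGTS libraries were aligned to mm9 with Bowtie2, whose version is not given in the sources used here. The authors deposited a junction table per library, with bait and prey positions, strands and read coordinates for each junction. These values are coordinates and marks without normalization, and no deposited comparison column was used. All rows were counted. Overlap is the number of read bases covered by both alignments, mismatches included, and a negative overlap is an insertion. The Sε sequence was rebuilt from the aligned bases (4642102 bases, 99.9999% equal to the majority base), since no mm9 genome was used here. Libraries were the unit of every test. Groups were compared by 2-sided exact permutation tests and orientations by exact sign-flip tests over libraries, with Benjamini-Hochberg adjustment within each family and a threshold of 0.05. Intervals (Wilson, 95%) cover counting error only. PCR reads without molecular identifiers are not independent molecules. Calculations used Python 3.11.15, scipy 1.17.1, pandas 2.3.3 and numpy 2.4.6, and were tested on simulated data. Printed positions are the 5 most used prey ends with ties. Printed joins are, per bait, those with the longest MH or insertion and those at the most used position. The joins, lists and tests were chosen with earlier results of these data known. Same-numbered libraries of WT and A150 with the Sµ bait and anti-CD40+IL4 deviated together, with correlations of 0.353, 0.334 and 0.351 over 6 measures, so that a blocked value is given there. In the other 3 comparisons at least 1 pair was under 0.1.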

Additional observations from a re-analysis of the deposited data

Results flagged for a closer look

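Among the Sγ3-bait libraries of A150 after anti-CD40+TGF-β, library 3 had its median inversional position at 114515042, apart from the other three, which lay between 114515005 and 114515011. Its gap to the nearest was 0.838 of the range of the 4 libraries. Of 14 sets of 4 libraries examined for such gaps, chance alone sets apart about 1 in 20.

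The difference between inversional and deletional joins in the percentage with MH >3 bp differed between the baits in A150 by −3.77 points (exact permutation p = 0.00163), and that in the percentage with an insertion by 5.89 points (exact permutation p = 0.0114). Both tests were added after seeing the data.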

How the results depend on the processing

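Leaving out joins with the mark of a low mapping quality, duplicates, or later junctions, changed no value within Sε, since none carries such a mark. The higher inversion percentage with the Sγ3 bait over both stimulations passed the threshold under every alternative run. All differences are in percentage points, unless bp is given, and each cause was not tested. Without low mapping quality, Sε minus Sγ1 was −13.1 (Sµ bait) and −4.98 (Sγ3 bait).

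With all IgH junctions as the denominator, the genotype difference with the Sµ bait was 0.509 for anti-CD40+IL4 and 0.416 over both stimulations (exact permutation p = 0.00286). The stimulation difference was −0.599 (Sµ) and −0.799 (Sγ3) in A150, −0.604 over 3 groups, the change of the bait difference −0.200 and that of the genotype difference −0.185. With identical joins counted once, the bait difference of the orientation difference in MH of 1-3 bp was 0.241. With at least 30 prey and 50 bait bases aligned, it was 1.08, and inversional minus deletional MH of 1-3 bp with the Sγ3 bait was −3.74. Also there, inversional minus deletional MH >3 bp with the Sµ bait was −2.66 (exact sign-flip p = 0.00195), the stimulation difference in A150 with the Sµ bait −0.181, and the bait differences in insertions −1.18 (anti-CD40+IL4) and 3.39 (anti-CD40+TGF-β). That in MH >3 bp for anti-CD40+TGF-β was 1.32, and 1 of 28 class comparisons had p under 0.05.

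In the core of Sε, 0 of 28 did, and the stimulation difference in A150 with the Sµ bait was −0.178. The insertion differences were 4.94 for the bait with anti-CD40+TGF-β and −9.15 for the genotype with anti-CD40+IL4, and the position differences were 433.2 and 171.8 bp. Without insertions in the percentages, inversional minus deletional with the Sµ bait was 1.93 for direct joins and −1.03 for MH of 1-3 bp, with the Sγ3 bait 8.37 and −2.93, the bait difference in MH >3 bp for anti-CD40+TGF-β was 0.327, and the bait differences of the orientation difference were 0.671 for direct joins and 3.57 for MH of 1-3 bp (exact permutation p = 0.00735). With MH >4 bp in place of >3 bp, that bait difference was 0.355, and inversional minus deletional with the Sµ bait was −1.06 (exact sign-flip p = 0.0115). With unambiguous prey ends, the AGCT difference with the Sγ3 bait was −5.04. The next 3 choices were added after seeing the data. Over 10 Sµ-bait libraries without the WT anti-CD40+TGF-β group, the orientation differences were 6.02 for direct joins, −6.94 for MH of 1-3 bp and 1.33 for AGCT, and permuting stimulations within each bait kept the value of 7.26 and gave an exact permutation p of 0.0163. Without joins with a mismatched overlap, the bait difference in MH >3 bp for anti-CD40+TGF-β was 0.125 and inversional minus deletional MH >3 bp with the Sµ bait 0.0733.

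Paired by number as a replicate block, where 3 pairs cannot give a p under 0.25, the bait differences in inversion percentage were 15.1 and 22.4 and the stimulation difference with the Sγ3 bait 7.40. The bait differences in insertions were −1.82 and 4.58, the genotype difference in insertions −8.47, and the position difference for anti-CD40+TGF-β 127.3 bp. With the block, 0 of 28 class comparisons and 0 of 7 position comparisons had p under 0.05, and the block changed no other call of those fitted with it.

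With each library left out in turn, groups often became too small to reach the threshold. The bait difference in inversion percentage then ranged from 14.4 to 16.3 for anti-CD40+IL4 and from 22.1 to 22.9 for anti-CD40+TGF-β. The stimulation difference ranged from 6.18 to 8.02 with the Sγ3 bait, from −0.253 to 0.265 in A150 with the Sµ bait, from −3.46 to 0.292 in WT and from 1.32 to 2.57 over 3 groups. The genotype difference ranged from −0.882 to −0.378 for anti-CD40+IL4. It ranged from −0.879 to 2.87 for anti-CD40+TGF-β and from −0.773 to 1.10 over both stimulations, and its change between stimulations from −0.213 to 3.54, each end set by WT library 1 or 2 for anti-CD40+TGF-β. Without library 1 of that group, which held 2 inversional joins, the stimulation difference over 3 groups had an exact permutation p of 0.0215, and without library 2 the change of the genotype difference had one of 0.00857. Bait differences ranged from −1.82 to 2.02 and from 2.55 to 5.34 in insertions, from −0.196 to 0.927 and from −1.20 to 1.25 in MH >3 bp, and for position from 48.4 to 176.1 bp with anti-CD40+TGF-β, the lowest without A150 Sµ-bait library 3. The genotype difference in insertions ranged from −12.3 to −8.47. Inversional minus deletional values with the Sµ bait ranged from 1.502 to 7.18 for insertions, from −0.493 to 3.16 for direct joins, from −6.34 to −3.74 for MH of 1-3 bp (exact sign-flip p = 0.0176 without WT anti-CD40+TGF-β library 1 and 0.0391 without library 3), from −1.56 to −0.0409 for MH >3 bp and from −3.88 to 1.17 bp for bait ends, and with the Sγ3 bait from 4.50 to 6.58 bp for bait ends. The bait differences of the orientation difference ranged from −2.96 to −0.782 for direct joins and from −0.778 to 0.358 for MH of 1-3 bp. From 1 to 2 of 28 class comparisons and from 0 to 1 of 7 position comparisons had p under 0.05. Depth limits the WT libraries with the Sγ3 bait, which entered no test, and the WT anti-CD40+TGF-β libraries with the Sµ bait.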
